A study of Mus musculus with 2 samples.

Results

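The genes described are the core of the Notch pathway as listed by symbol: the receptors Notch1, Notch2 and Notch3, the ligands Jag1 and Jag2, the DNA-binding effector Rbpj, and the target genes Hes1, Hey1, Hey2 and Heyl. All 10 symbols were found among the 24421 rows of the count table, and all 10 exceeded a mean of 1 CPM (a count scaled to library size, in parts per 1000000 counts), the minimum used for comparison. The study sequenced ribosomal-RNA-depleted total RNA from whole ovaries of C57BL/6J mice aged 8 weeks, to ask which ovarian genes depend on H19, an imprinted long noncoding RNA. One group is the H19KO, whose label names the allele H19(Δ3), and the other is the wild type (WT). Each group is 1 library, with 23041225 counts in H19KO and 23335131 in WT, and how many animals each library holds is not given in the sources used here.

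With 1 library per genotype there is no replicate check, no p-value is given, and every difference describes these 2 libraries rather than the genotypes. Each log2 ratio is H19KO over WT after scaling and is followed by its exact 95% binomial interval in brackets, which covers counting error only. H19 itself had 0 counts in H19KO and 672 in WT, which places it about 223-fold lower in H19KO when 3 counts are allowed for the 0. The upper bound of the exact interval of its log2 ratio was -7.497, a smaller difference. Markers of the ovary were present in both libraries, with Amh of granulosa cells at 778 counts in H19KO and 1214 in WT and Zp3 of the oocyte at 573 in H19KO and 892 in WT. Insl3, a hormone of theca cells, had only 2 counts in H19KO and 1 in WT. Cyp17a1, from the same marker list, had 2834 counts in H19KO and 11243 in WT. Why Insl3 had so few counts was not tested.

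Notch signalling passes between touching cells. A Jagged or Delta-like ligand on one cell binds a Notch receptor on its neighbour, proteases then release the receptor's intracellular domain, and that domain joins RBPJ on DNA and turns on transcriptional repressors of the Hes and Hey families. In the mouse ovary JAG1 made by the oocyte and NOTCH2 of granulosa cells take part in forming and growing follicles, while Notch1 and Notch4 are known from endothelium and Notch3 and Heyl from the mural cells of vessels.

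RBPJ recognises a short DNA word whose core is GTGGGAA. Annotated promoter windows (RefSeq, GRCm38.p6, 250 bases before to 50 after the start) were matched for 7 of the 10 genes, in 8 windows, and GTGGGAA was searched on both strands; Hes1, Hey1 and Heyl were not matched. Hey2 was the only one of the 7 to hold the word, once on each strand, at positions -207 and -4 counted from 0 at the annotated start. Of 32851 windows of this length in the mouse genome 6.38% held at least 1 match and 0.100% held the word on both strands. The Hey2 sequence is shown because Hey2 is a Notch target that was lower in H19KO, and Hes5 because it holds the same pair of words, at -226 and -83, yet had only 2 counts in H19KO and 3 in WT. The Hey2 stretch is chr10:30842774-30843033 on the minus strand and the Hes5 stretch chr4:154960673-154960932 on the plus strand, each read 5′ to 3′ with the matches in capitals (TTCCCAC is the word on the opposite strand).
Hey2: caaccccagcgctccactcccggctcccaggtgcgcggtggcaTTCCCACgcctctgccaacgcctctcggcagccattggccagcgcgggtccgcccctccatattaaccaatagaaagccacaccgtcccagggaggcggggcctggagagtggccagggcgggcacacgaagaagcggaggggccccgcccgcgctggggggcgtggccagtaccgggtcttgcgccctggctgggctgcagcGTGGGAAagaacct
Hes5: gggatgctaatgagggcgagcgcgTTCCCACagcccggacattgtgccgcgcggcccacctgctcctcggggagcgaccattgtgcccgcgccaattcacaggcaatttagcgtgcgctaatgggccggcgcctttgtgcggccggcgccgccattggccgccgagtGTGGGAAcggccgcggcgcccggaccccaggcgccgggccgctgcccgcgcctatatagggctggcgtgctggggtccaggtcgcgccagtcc
The shorter word TGGGAA, which GTGGGAA contains, was also present in both Rbpj windows, and 25.6% of all windows held it. These matches describe letters and are not evidence of binding.

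The 4 target genes were all lower in the H19KO library, whereas the most abundant receptor, Notch2, and the effector Rbpj were close to equal in the 2 libraries. Of the 10 genes 7 had an interval wholly below a ratio of 1, namely Notch1, Notch3, Jag1, Hes1, Hey1, Hey2 and Heyl, and 1 had an interval wholly above it, Notch2. Among all 13928 genes of at least 1 CPM, 24.0% had an interval below a ratio of 1 and 22.2% an interval above it. The median log2 ratio of the 10 genes was -0.33, against -0.01 for all genes tested. None of the 10 had an interval wholly beyond 2-fold, in either direction, where 0.388% of all genes lay beyond it on the lower side and 0.610% on the higher side. None lay wholly beyond 1.5-fold either, where the background was 1.21% lower and 1.80% higher.

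**Figure D1:**
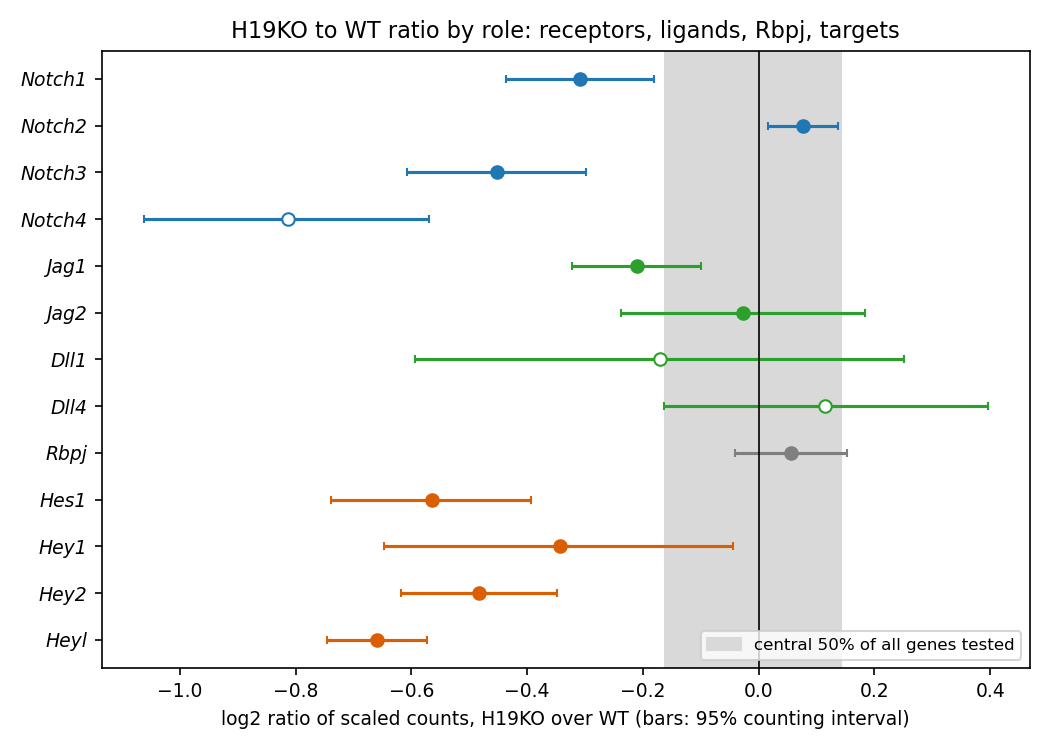
Log2 ratio of scaled counts (x axis) for the Notch receptors (blue), ligands (green), Rbpj (grey) and targets (orange), H19KO over WT, 1 library each; bars are 95% counting intervals, open circles mark Notch4, Dll1 and Dll4, and the grey band holds the central 50% of all genes tested, from -0.16 to 0.14. The 4 targets lie left of the band, from -0.66 to -0.34. So do Notch1 at -0.31, Notch3 at -0.45, Notch4 at -0.81, Jag1 at -0.21 and, barely, Dll1 at -0.17. Notch2, Rbpj, Jag2 and Dll4 lie inside it.

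Among the targets, Heyl, a basic helix-loop-helix repressor, had 1795 counts in H19KO and 2850 in WT. Its log2 ratio of -0.66 (-0.74 to -0.57) was the lowest of the 10, and 2.64% of all genes tested had a lower one. Hes1, a repressor of the same class and a classic effector of Notch, had 461 counts in H19KO and 686 in WT, a log2 ratio of -0.56 (-0.74 to -0.39), and 3.88% of genes tested were lower. Hey2, whose promoter words are shown above, had 774 counts in H19KO and 1088 in WT. Its log2 ratio was -0.48 (-0.62 to -0.35), and 5.36% of genes tested were lower. Hey1, the least abundant of the 4, had 166 counts in H19KO and 212 in WT, a log2 ratio of -0.34 (-0.65 to -0.04) whose upper bound nearly reaches 0. Summed over the 4 targets, H19KO held 3196 counts and WT 4836, a log2 ratio of -0.59 (-0.65 to -0.52).

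The receptors differed among themselves. Notch2 had 4445 counts in H19KO and 4239 in WT, a log2 ratio of 0.08 (0.02 to 0.14), and 65.5% of genes tested had a lower ratio. Notch1 had 909 counts in H19KO and 1132 in WT, a log2 ratio of -0.31 (-0.44 to -0.18). Notch3 had 596 counts in H19KO and 820 in WT, a log2 ratio of -0.45 (-0.61 to -0.30). Thus 1 receptor was slightly higher in H19KO and the other two lower. The fourth receptor, Notch4, was lower by the widest margin, with 216 counts in H19KO and 382 in WT and a log2 ratio of -0.81 (-1.06 to -0.57).

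These differences can be stated without scaling between libraries, as shares of the counts of the 4 receptors within a library, not divided by gene length, with exact Clopper-Pearson 95% intervals. Notch2 made up 72.1% (71.0 to 73.2) of 6166 receptor counts in H19KO and 64.5% (63.3 to 65.6) of 6573 in WT. Notch3 made up 9.67% (8.94 to 10.4) in H19KO and 12.5% (11.7 to 13.3) in WT, and Notch4 3.50% (3.06 to 3.99) in H19KO and 5.81% (5.26 to 6.40) in WT. Notch1 made up 14.7% (13.9 to 15.7) in H19KO and 17.2% (16.3 to 18.2) in WT. For each of the 4 receptors the 2 intervals did not overlap, with a larger share for Notch2 and smaller ones for the others in H19KO. Shares within a library add up to the whole, so a smaller share of some receptors means a larger share of another. Ratio intervals clear of equality were common among all genes tested, with 24.0% wholly below 1 and 22.2% wholly above. That is a different measure from share intervals that do not overlap, for which no background over all genes was computed. The total of the 4 receptors differed little, with a log2 ratio of -0.08 (-0.13 to -0.03).

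Of the ligands, Jag1, the Jagged ligand of oocytes and vessels, had 1229 counts in H19KO and 1430 in WT, a log2 ratio of -0.21 (-0.32 to -0.10). Jag2 had 367 counts in H19KO and 376 in WT, a log2 ratio of -0.03 (-0.24 to 0.18), which spans 0. The Delta-like ligands lie outside the 10. Dll4, the ligand of sprouting vessels, had 223 counts in H19KO and 207 in WT, with a log2 ratio of 0.12 (-0.16 to 0.40), Dll1 had 91 in H19KO and 103 in WT, with -0.17 (-0.59 to 0.25), and Dll3 had 8 in H19KO and 7 in WT, below the minimum level. No Delta-like ligand therefore had an interval clear of 0. Jag1 held 64.1% (61.9 to 66.2) of the 1918 ligand counts in H19KO and 67.4% (65.3 to 69.4) of the 2123 in WT, and these intervals overlap.

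Rbpj, through which all 4 receptors act, had 1744 counts in H19KO and 1687 in WT. Its log2 ratio was 0.06 (-0.04 to 0.15), which spans 0. Rbpj has annotated processed pseudogenes, so reads from near-identical copies could be counted for it or lost from it.

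**Figure D2:**
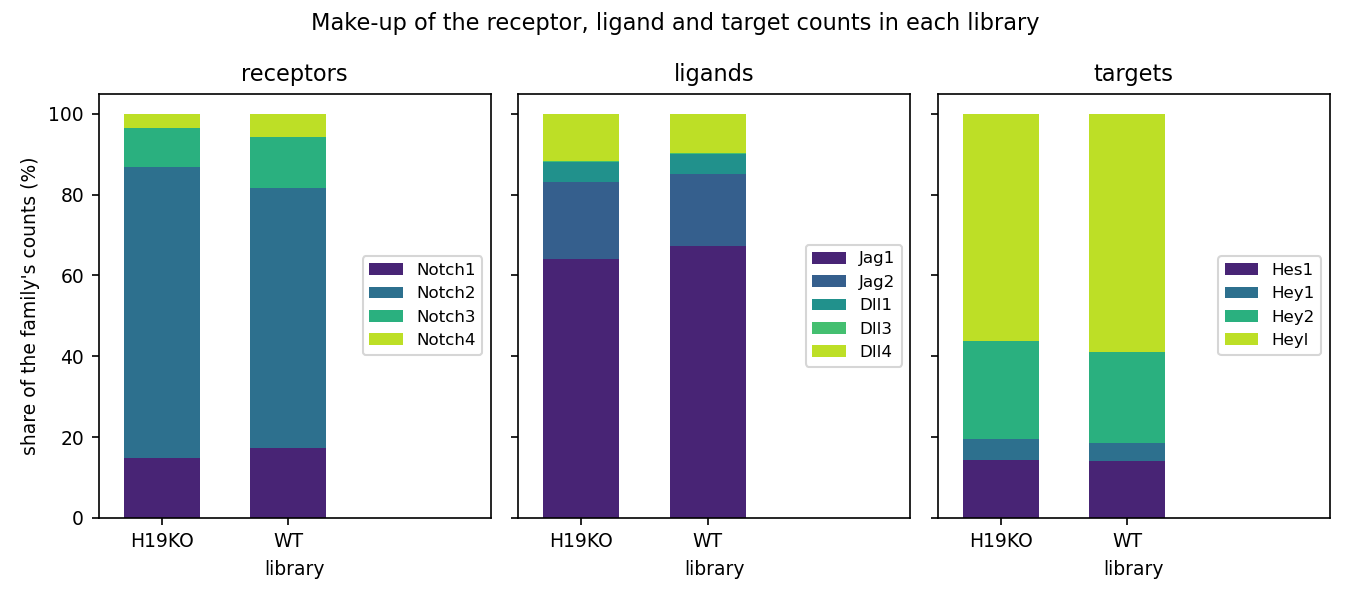
Share of counts within the receptor, ligand and target families (y axis, percent) for the H19KO library and the WT library (x axis), stacked by gene. Notch2 takes 72.1% of receptor counts in H19KO and 64.5% in WT, while Heyl takes 56.2% of target counts in H19KO and 58.9% in WT.

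Within the targets, Heyl made up 56.2% (54.4 to 57.9) of the counts of the 4 targets in H19KO and 58.9% (57.5 to 60.3) in WT, Hey2 24.2% (22.7 to 25.7) in H19KO and 22.5% (21.3 to 23.7) in WT, and Hes1 14.4% (13.2 to 15.7) in H19KO and 14.2% (13.2 to 15.2) in WT. Hey1 made up 5.19% in H19KO and 4.38% in WT. The intervals of these shares overlapped for each of the 4. Differences between pairs of genes in log2 ratio, which do not depend on the scaling either, were computed for 11 pairs picked by hand. Heyl had the lowest ratio of the 10 genes, and Notch2 and Rbpj the highest. Wide differences between them therefore repeat that order and are no further result. The same differences were not computed over all pairs of genes. The log2 ratio of Heyl was below that of Notch2 by a difference of -0.74 (-0.84 to -0.63) and below that of Rbpj by -0.71 (-0.84 to -0.59). That of Hes1 was below that of Rbpj by -0.62 (-0.82 to -0.43), and that of Notch3 below that of Notch2 by -0.53 (-0.69 to -0.36). Against Notch2, Notch1 was at -0.38 (-0.52 to -0.25) and Jag1 at -0.29 (-0.41 to -0.16). Jag1 against Jag2, at -0.18 (-0.42 to 0.05), and Hey2 against Hey1, at -0.14 (-0.46 to 0.18), had intervals that span 0, as had Heyl against Hes1, at -0.09 (-0.28 to 0.10). The log2 ratio of Heyl was below that of Hey2 by -0.18 (-0.33 to -0.02) and below that of Hey1 by -0.31 (-0.62 to -0.01), intervals that lie just below 0.

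Levels of different genes were compared as CPM per kilobase of merged exons. In H19KO the order began with Notch2 at 17.8, followed by Heyl at 15.2, Hes1 at 9.79, Jag1 at 9.12, Hey2 at 7.29 and Rbpj at 5.92 CPM per kilobase. Notch3 at 3.19, Notch1 at 2.76, Jag2 at 2.28 and Hey1 at 2.2 CPM per kilobase closed it. In WT Heyl came first at 24.0, ahead of Notch2 at 16.9, Hes1 at 14.5, Jag1 at 10.6, Hey2 at 10.2 and Rbpj at 5.69 CPM per kilobase. Notch3 followed at 4.36, Notch1 at 3.42, Hey1 at 2.79 and Jag2 at 2.32 CPM per kilobase. Neighbours whose 95% counting intervals overlapped were Hes1 and Jag1, Notch3 and Notch1, and Jag2 and Hey1 in H19KO, and Jag1 and Hey2, and Hey1 and Jag2 in WT. Per kilobase of merged exons, Heyl and Notch2 thus stood in the opposite order in the 2 libraries, beyond counting error. The order depends on the gene length used. Per kilobase of the longest protein-coding transcript, Rbpj had 13.8 in H19KO and 13.2 in WT and Hey2 13.1 in H19KO and 18.3 in WT, so that Rbpj had rank 3 in H19KO and rank 5 in WT. By that length Notch2 had 18.3 in H19KO and 17.4 in WT, and Heyl 17.1 in H19KO and 27.0 in WT. Notch2 then had rank 1 in H19KO and rank 4 in WT. Counting intervals were not computed for that length.

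**Figure D3:**
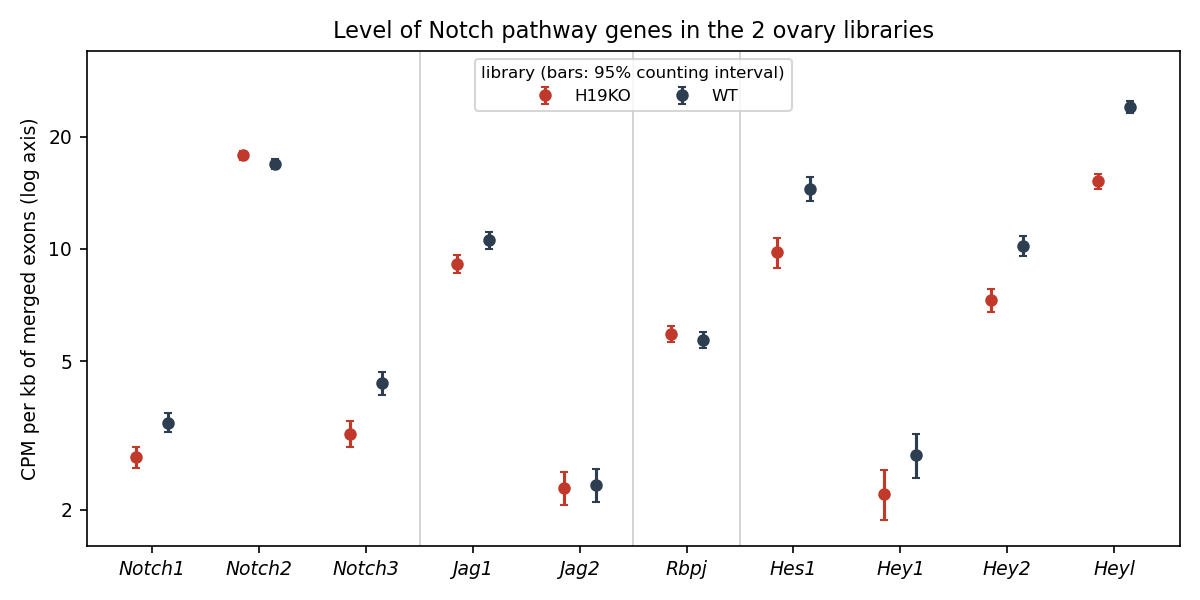
Level of each gene (y axis, CPM per kilobase of merged exons, log axis) in the H19KO library (red) and the WT library (dark), with 95% Poisson counting intervals. Heyl is at 15.2 in H19KO and 24.0 in WT, while Notch2 is at 17.8 in H19KO and 16.9 in WT.

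The 10 genes are spread over 8 chromosomes of the mm10 build, with Notch1 and Jag1 on chromosome 2 and Notch2 and Hey1 on chromosome 3. Heyl lies on the plus strand of chromosome 4 (123233556 to 123249875), Hes1 on the plus strand of chromosome 16 (30064384 to 30067796), Hey1 on the minus strand of chromosome 3 (8663359 to 8667256) and Hey2 on the minus strand of chromosome 10 (30832359 to 30842801). The gene models of these 4 targets overlap no other annotated gene. Exons of Notch1 overlap the antisense transcripts 0610009E02Rik and Gm13568 by 1068 and 414 bases, exons of Notch3 overlap Gm17276 by 488 bases, and those of Notch2 overlap Gm42820, on the same strand, by 541 bases. Because the strand setting of the counting is not given, reads of these overlaps cannot be assigned with certainty.

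**Figure D4:**
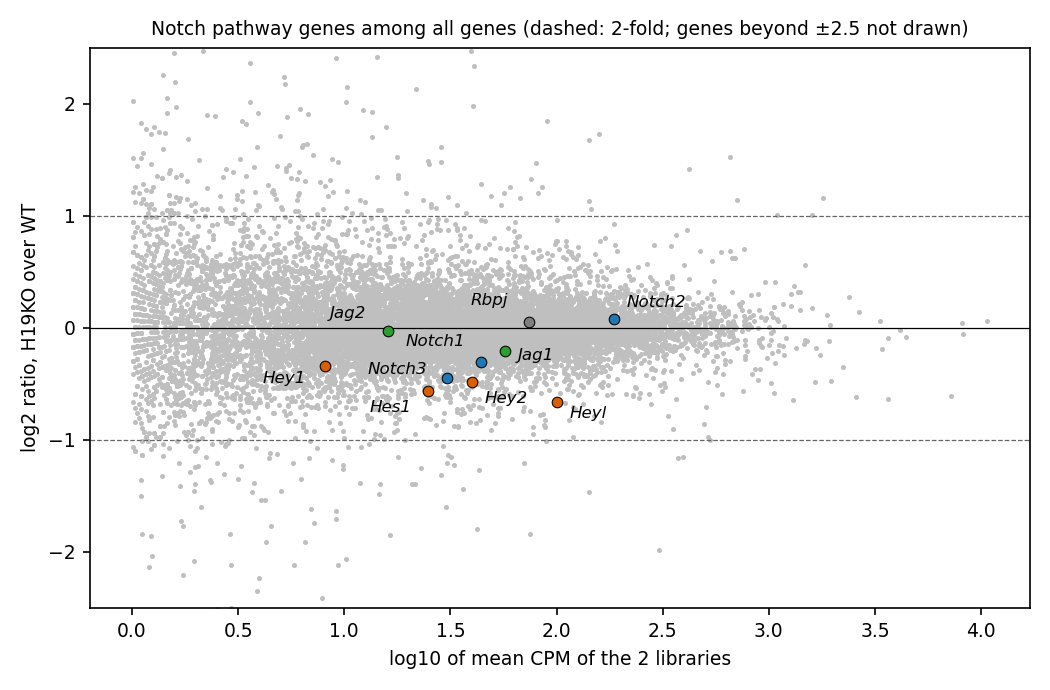
Log2 ratio, H19KO over WT (y axis), against log10 of the mean CPM of the 2 libraries (x axis) for all 13928 genes of at least 1 CPM (grey) and the 10 Notch genes (coloured by role). Dashed lines mark 2-fold, which none of the 10 reaches, and Heyl is the lowest of the 10 at -0.66.

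The rest of the pathway was examined through lists of other Notch genes, of which 68 of 77 were measured at 1 CPM or more. Of the 68, 26 had an interval below a ratio of 1 and 16 one above, or 38.2% and 23.5%, beside 24.0% and 22.2% of all genes. Their median log2 ratio was -0.09, nearer to that of all genes than the median of the 10. Dner was the only one wholly beyond 2-fold.

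Genes that cut the receptor to activate it were close to equal. Of 10 measured, 1 had an interval above a ratio of 1 and 3 below, beside 22.2% and 24.0% of all genes. The median log2 ratio of the 10 was 0.04. The one above was Adam10, the protease of the first ligand-dependent cut, with 4275 counts in H19KO and 3861 in WT and a log2 ratio of 0.15 (0.09 to 0.22). Ncstn, a subunit of the γ-secretase that makes the final cut, had 0.02 (-0.05 to 0.09), and Adam17, a related protease, 0.06 (-0.01 to 0.13). Furin, which processes the receptor precursor, was the lowest of the list at -0.32 (-0.40 to -0.25). Of 5 glycosyltransferases that modify the receptor, Poglut1 was above at 0.27 (0.14 to 0.39), Rfng below at -0.28 (-0.51 to -0.05), and Pofut1, Lfng and Mfng spanned 0.

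Among 15 genes of ubiquitination and endocytosis, 4 were above a ratio of 1 and 3 below, beside 22.2% and 24.0% of all genes. The median log2 ratio of the 15 was -0.04. The 4 above were Dtx3l, at 2199 counts in H19KO and 1382 in WT and a log2 ratio of 0.68 (0.58 to 0.78), and, by less, Dtx3 at 0.15, Dtx4 at 0.15 and Mib1, the ligase that lets ligands be pulled into the sending cell, at 0.12 (0.05 to 0.19). Dtx3l is a Deltex-family ligase that is also induced by interferon. The 3 below were Dtx1, a Deltex gene that is itself a Notch target in lymphocytes, with 146 counts in H19KO and 232 in WT and a log2 ratio of -0.66 (-0.97 to -0.36), Fbxw7, which marks the intracellular domain for degradation, at -0.35 (-0.45 to -0.26), and Aak1 at -0.09. Itch, another ligase, had -0.04 (-0.11 to 0.04).

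Of the 8 coactivators 3 were above and 4 below a ratio of 1, beside 22.2% and 24.0% of all genes, with a median of 0.02. Crebbp had a log2 ratio of -0.15, Ep300 -0.09 and Kat2a -0.15, all histone acetyltransferases, and the Mastermind gene Maml1, which binds the complex of RBPJ and the intracellular domain, -0.29 (-0.40 to -0.19). On the other side were Kat2b at 0.29 (0.21 to 0.37), Maml3 at 0.15 and Snw1 at 0.12. Of 15 corepressors 3 were above and 9 below, with a median of -0.10. Ncor1, with the most counts, had 13769 counts in H19KO and 14229 in WT, a log2 ratio of -0.04, and Hdac2 had -0.23, while Kdm5a had 0.09. The other two above were Spen, which binds RBPJ directly, at 0.14, and Cir1 at 0.33. The Groucho-related corepressors Tle2, at -0.57 (-0.69 to -0.46), and Tle3, at -0.52 (-0.62 to -0.43), which work with Hes proteins, were the lowest of the list and are named after their values were seen. Of the other Tle genes listed, Tle4 was at -0.27 (-0.44 to -0.10) and Tle1 at 0.02 (-0.06 to 0.10), which spans 0.

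Other Hes genes and targets gave a mixed picture. Hes6 had 272 counts in H19KO and 381 in WT, a log2 ratio of -0.48 (-0.71 to -0.25), and Nrarp, a feedback inhibitor induced by Notch, 156 in H19KO and 191 in WT, a log2 ratio of -0.28 (-0.60 to 0.03) that spans 0. Myc, with 2758 counts in H19KO and 2357 in WT, had 0.23 (0.15 to 0.31), Bhlhe40 0.27 (0.16 to 0.37) and Bhlhe41 -0.22 (-0.41 to -0.02), while Ccnd1 had -0.01 (-0.16 to 0.14). Hes2, Hes3, Hes5, Hes7 and Helt had at most 4 counts in any library, so no difference was detectable at this depth. Thus Hes6 and Bhlhe41 were lower as were the 4 targets above, Myc and Bhlhe40 were higher, and the intervals of Nrarp and Ccnd1 spanned 0.

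Among ligands that are not of the Jagged or Delta-like kind, Dner, a transmembrane protein with Notch-like repeats, had 41 counts in H19KO and 157 in WT, a log2 ratio of -1.92 (-2.46 to -1.43). Dlk1, an imprinted inhibitor of Notch, had 101 counts in H19KO and 55 in WT, a log2 ratio of 0.88 (0.40 to 1.39). These were the most extreme measured genes of the pathway lists, in opposite directions. Of the microfibril genes, Mfap2 was at -0.45 (-0.54 to -0.35) and Mfap5 at 0.20 (0.02 to 0.39). The endothelial secreted factor Egfl7 was at -0.19 (-0.32 to -0.07) and Cntn1 at -0.17 (-1.04 to 0.70).

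Markers of the cells that carry Notch genes also differed between the libraries. The counts below stand beside 24.0% of all genes tested with an interval below a ratio of 1 and 22.2% above. In whole-ovary RNA, fewer cells of a type and less RNA per cell cannot be told apart. Endothelial markers, the cells of Notch1, Notch4 and Dll4, had 9 of 15 intervals below a ratio of 1 and 1 above, a median log2 ratio of -0.19, and a summed level of 825 CPM in H19KO and 949 in WT. Pecam1 and Cdh5 had -0.36 (-0.44 to -0.28) and -0.27 (-0.33 to -0.21), and Cldn5, the one above, 0.23. Smooth muscle and pericyte markers, the cells of Notch3 and Heyl, had 7 of 12 intervals above and 4 below, a median of 0.16, and a summed level of 2580 CPM in H19KO and 2219 in WT. The contractile genes Myh11, at 0.60 (0.56 to 0.64), Acta2 and Mylk were above, and the 4 below were Pdgfrb at -0.35 (-0.42 to -0.28), Mcam at -0.30, Cspg4 at -0.41 and Rgs5 at -0.17, all known from pericytes. Other pericyte genes of the list were not below, with Abcc9 at 0.26 (0.18 to 0.34) and Kcnj8 at -0.06 (-0.32 to 0.20).

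Granulosa markers, the cells of Notch2 and of Hes1 and Hey2 in growing follicles, had 11 of 12 intervals below a ratio of 1. The share of all genes tested was 24.0% below and 22.2% above. The median of the granulosa markers was -0.51, with a summed level of 4275 CPM in H19KO and 5596 in WT. Cyp19a1 and Ihh were beyond 2-fold, at -1.60 and -1.23, and Nr5a2 alone was above, at 0.04. Oocyte markers, a known source of Jag1 beside vessels, had 7 of 10 below and none above, a median of -0.33, and a summed level of 337 CPM in H19KO and 427 in WT. Among 6 theca and interstitial genes the median was -0.51, with 5 below, 1 above (Star, at 0.11) and Cyp17a1 beyond 2-fold at -1.98, and luteal markers had one of -0.58, with 6 of 6 below. No marker of the 6 lists named so far had 0 counts in a library. In the other lists, macrophage markers had a median of 0.36 over 6 genes, with 5 above and 1 below, Csf1r at -0.24 (-0.35 to -0.13). Surface epithelium markers had 0.27 over 6, with 4 above and 1 below, Lgr5 at -0.33 (-0.46 to -0.20). Oviduct markers had 2 measured genes in opposite directions, Ovgp1 beyond 2-fold at 2.01 and Tuba1a at -0.79, and Dynlrb2 had 0 counts in both libraries. The median of 3 adipocyte markers was -0.42, with Plin4 beyond 2-fold at -1.15 and Fabp4 the other way at 0.57 (0.10 to 1.05). Adipoq, with 3 counts in H19KO and 5 in WT, and Cidec, with 8 in H19KO and 3 in WT, were below the minimum. The adipocyte list thus gave no common direction. Of the red blood cell markers only Alas2 was measured, with 44 counts in H19KO and 89 in WT, the 4 globin genes being at 0 in both. The part of any of these cell types in the Notch values was not tested.

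**Figure D5:**
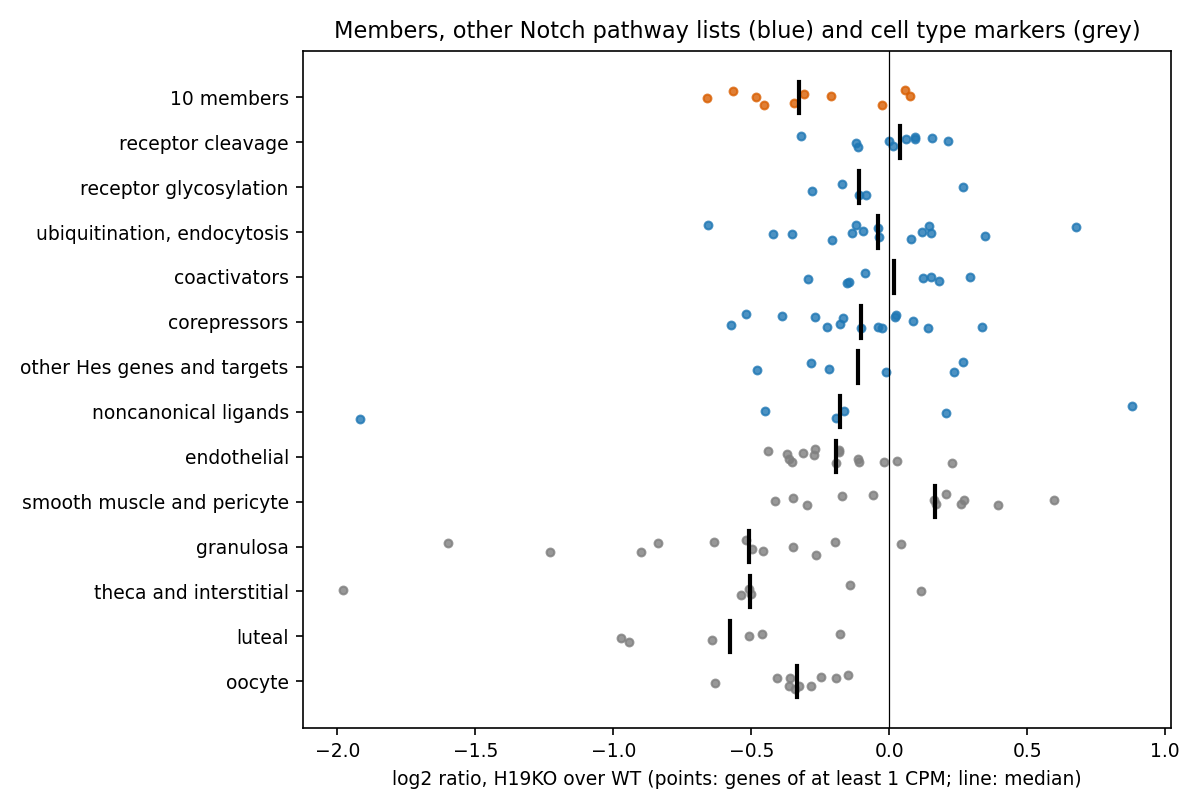
Log2 ratio, H19KO over WT (x axis), of each gene of at least 1 CPM in the 10 Notch genes (orange), other Notch pathway lists (blue) and cell type marker lists (grey), with a black line at each list's median. The median of the 10 is -0.33, those of receptor cleavage genes and coactivators are 0.04 and 0.02, and those of granulosa and luteal markers are -0.51 and -0.58.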

How the data were processed

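The authors deposited whole-number counts per gene symbol for 1 H19KO and 1 WT ovary library. Per the labels' protocols, libraries were stranded, ribosomal-RNA-depleted and sequenced with paired ends. The submitters' processing notes list the mm10 build and, with no role for any of them, DESeq2 1.0.0, Cufflinks 2.2.1 and STAR 2.5.0a. How reads were counted, on which annotation and with which strand setting, is not given in the sources used here, and whether the counts had been rescaled before deposit was not settled.

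TMM factors from edgeR 4.0.16 scaled the libraries, and 0.5 was added to each scaled count before the logarithm. Intervals are exact conditional binomial for ratios, Clopper-Pearson for shares, Poisson for levels and log-normal for differences between genes, all at 95% and for counting error only. Gene models are GENCODE M21. A gene was counted at a mean of at least 1 CPM. DESeq2 1.42.0 gave alternative size factors. The 27 rows with dates for symbols stayed in the totals. Named genes were the 10, Notch4 and the Delta-like genes, up to 3 abundant genes of each list, those wholly beyond 1.5-fold in pathway lists or 2-fold in marker lists and, after their values were seen, genes making up counts of 5 or fewer. The genes and lists were chosen with earlier results of these data known. Intervals and calls were checked on simulated counts that held Poisson counting error only, which is the error the intervals assume. That check cannot speak to variation between animals or libraries. Python 3.11.15 and R 4.3.3 were used. A gene that the naming rule selects is left unnamed and its own value is not reported here.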

Additional observations from a re-analysis of the deposited data

How the results depend on the processing

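The 40 log2 ratios of the 10 Notch genes under 3 other scalings and with 5 added to each count stayed inside their intervals with their direction. These are not 40 separate checks, because a scaling shifts all genes alike. The median of all genes, -0.0117 in the main scaling, was -0.0197 at the lowest and -0.00139 at the highest. Under the 3 scalings and with no minimum or 5 CPM, 7 of the 10 were below a ratio of 1 and 1 above. None of the 10 lay beyond 2-fold under these settings, by the point ratio, or with a limit of 1.5-fold. Over all genes, a minimum of 5 CPM left 34 beyond 2-fold on the lower side, as fewer genes were counted. The 1.5-fold limit gave 251 higher and 168 lower, and the point ratio 206 and 123, as looser rules must. Of 149 list medians under alternatives, 142 moved by no more than a typical member's interval half-width. Those that moved were oviduct markers with no minimum (0.00727) and at 5 CPM (-0.79, with the sign turned), adipocyte markers at 5 CPM (-0.79), where fewer or more genes were measured, and by the mean in place of the median smooth muscle and pericyte (0.0643), granulosa (-0.62), theca and interstitial (-0.59) and luteal markers (-0.62). The transcript length used for levels, an alternative chosen after seeing the data, moved 14 of 20 levels past their intervals. Leaving out a replicate was impossible with 1 library per genotype. No paired analysis was possible because only 1 library stood on either side. Depth limits genes of few counts, such as Dll3 and the Hes genes of at most 4 counts.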
